A study of Mus musculus with 6 samples.

Results

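The genes described here encode the collagen receptors of the chondrocyte: the 4 integrin alpha subunits that bind native collagen (*Itga1*, *Itga2*, *Itga10* and *Itga11*), their shared partner *Itgb1*, and the discoidin domain receptor kinases *Ddr1* and *Ddr2*. They are 7 of the 41388 genes in the count files, and all 7 passed the filter for low counts that left 14533 genes. The members were listed by name. *Itga10* was selected on measured values too, its lower read counts in every *Postn*-/- sample, so its genotype difference is given as a description, with no test, and tests were given for the other 6.

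The study asked how baseline RNA levels of joint chondrocytes differ when periostin is lost. Cells of femoral head cartilage came from 21-day-old male mice of strain B6/129 (a B6129SF2/J background in the study's methods), 3 libraries from *Postn*-/- mice homozygous for the germline null allele *Postn* tm1Jmol and 3 from wild-type (*wt*) littermates. Neither genotype received a treatment, and all cells spent 2 days in culture before RNA was taken. The gene was disrupted in the germline and so in all tissues, and the number of libraries is the number of mice in the study's design. The p-values measure the spread between these libraries.

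Total counts per library ran from 20587640 to 26572260, and 3 counts were worth 0.113 to 0.146 CPM on these raw totals. All other CPM values are the reads of a gene scaled to the library size with edgeR's TMM factors. The targeted gene *Postn* (chromosome 3, 54361109 to 54391034, plus strand, GRCm38) had 4.66, 4.27 and 5.67 CPM in the *Postn*-/- libraries, against 10.1, 10.3 and 6.90 CPM in *wt*. The genotypes did not overlap for *Postn*, yet it was not at 0 in the knockout libraries. Markers checked the label: the 13 chondrocyte markers summed to 32742 to 44412 CPM in *Postn*-/- and 26408 to 39544 CPM in *wt*, with overlap. Fibroblast markers summed to 614 to 1647 and 705 to 2188 CPM, osteoblast markers to 981 to 1860 and 758 to 3394 CPM, and leukocyte and osteoclast markers to 41.9 to 45.6 and 28.9 to 48.2 CPM, in *Postn*-/- and *wt* in that order. Smooth muscle and pericyte markers summed to 444 to 545 and 350 to 593 CPM, and *Rgs5* of that list was higher in *Postn*-/- at an unadjusted p = 0.0347 (log2 fold change 1.24, edgeR). *Rgs5* was at 0.769 to 3.86 CPM and its genotypes overlapped. The log2 fold changes of the other markers of that list ran from -0.23 to 0.51. Skeletal muscle markers summed to 3.66 to 6.26 and 5.57 to 16.9 CPM, and *Acta1* stood apart with lower values in *Postn*-/- (-1.30, unadjusted p = 0.0152, edgeR). The 3 other markers of that list did not pass the filter. Their means went the other way, 1.28-fold to 1.88-fold higher in *Postn*-/-, with overlap. Endothelial, platelet and epithelial markers summed to under 10 CPM in every library, and the part of these lists in the receptor values was not tested. Of the red cell markers none passed the filter, and *Hba-a2* was at 0 in all libraries. In these bulk samples, fewer cells of a type and less RNA per cell cannot be told apart.

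Integrins are pairs of an alpha and a beta subunit, and the alpha subunits encoded by these 4 genes carry an inserted I domain that grips the triple helix of collagen while the *Itgb1* tail connects to talin, kindlin and the actin skeleton. *Itga10* encodes the collagen II receptor typical of cartilage, *Itga1* a receptor that favours the network collagen IV, *Itga2* a receptor that favours fibrils, and *Itga11* a collagen I receptor of mesenchymal cells. Ddr1 and Ddr2 are receptor tyrosine kinases that are switched on by triple-helical collagen rather than by soluble growth factors, and Ddr2 responds to collagen II.

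Because *Itga10* was selected for its separated genotypes, its promoter is shown. The sequence is RefSeq's on GRCm38.p6, plus strand, chr3:96645367-96645583, which is the 217 bases before the start of *Itga10*:
Itga10 promoter: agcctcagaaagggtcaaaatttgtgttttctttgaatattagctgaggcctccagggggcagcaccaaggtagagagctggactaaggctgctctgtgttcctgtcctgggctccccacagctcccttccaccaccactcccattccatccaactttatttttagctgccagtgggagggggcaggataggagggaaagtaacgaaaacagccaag
Its GC content was 52.1%, against a median of 52.5% over all promoters. Both strands were searched for short motifs, and each was set against windows of the same length in 32851 promoters. The SOX motif ACAAT was absent here and present in 24.4% of the windows. The RUNX motif ACCACA was absent here and present in 12.3%. Among general promoter elements, the GC box GGGCGG (present in 31.7% of windows), the CCAAT box (30.9%) and the TATA string TATAAA (10.8%) were also absent, as was the AP-1 motif TGANTCA (5.87%). These absences describe the letters of this window and say nothing of the factors.

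The levels of the members were first ordered per length. In RPKM, the CPM per kilobase of exon, with libraries scaled by edgeR's TMM factors, the mean over all 6 libraries was 70.5 ± 7.67 (SD) for *Itgb1*, 39.5 ± 5.32 for *Ddr2*, 9.48 ± 4.19 for *Itga11*, 8.11 ± 1.57 for *Ddr1*, 6.30 ± 0.532 for *Itga1*, 4.04 ± 1.10 for *Itga10* and 0.374 ± 0.115 for *Itga2*. The beta subunit shared by all of the alpha subunits was thus the most abundant message, and *Ddr2* followed at a level above each of the 4 alpha subunits. *Itgb1* ranged from 59.1 to 81.5 RPKM and *Ddr2* from 30.5 to 44.7 RPKM, with no overlap. Below them, *Itga11* (4.79 to 15.9 RPKM) and *Ddr1* (5.36 to 9.99 RPKM) overlapped, and *Itga11* stood above *Ddr1* in 4 of 6 libraries, 3 of them *wt*. *Ddr1* and *Itga1* (5.68 to 6.98 RPKM) also overlapped. The remaining neighbours did not, and *Itga2* was lowest in every library, at 0.193 to 0.532 RPKM. The genes also differed in how much they varied between libraries: the coefficient of variation over the 6 libraries was 44.2% for *Itga11* and 8.45% for *Itga1*.

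**Figure D1:**
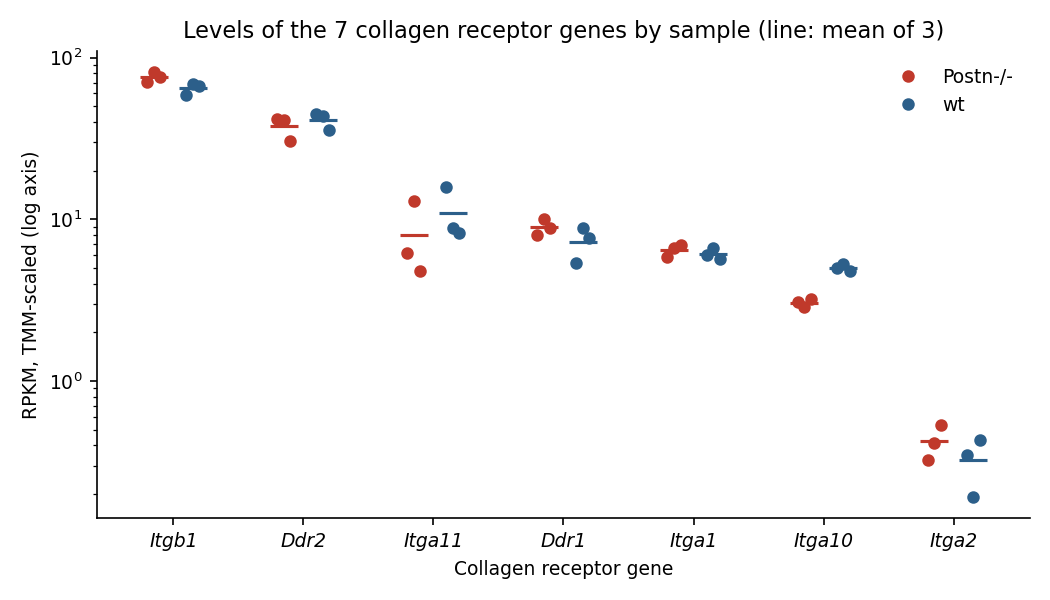
Level of each collagen receptor gene (TMM-scaled RPKM, log axis) in the 3 *Postn*-/- and 3 *wt* libraries, with a point per library and a line at the mean of each genotype. *Itga10* and *Itgb1* are the genes whose genotypes do not overlap, and *Itga11* shows the widest spread within a genotype.

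*Itga10* (ENSMUSG00000090210, chromosome 3, 96645584 to 96664519, plus strand) was represented by 397, 366 and 350 reads in *Postn*-/- and 676, 606 and 517 reads in *wt*. After scaling this was 16.0, 14.9 and 16.7 CPM in *Postn*-/- and 26.0, 27.4 and 24.8 CPM in *wt*. All *Postn*-/- libraries lay below all *wt* libraries, and the highest library of each genotype exceeded its lowest by 1.12-fold in *Postn*-/- and 1.11-fold in *wt*. The means were 15.8 ± 0.902 and 26.1 ± 1.32 CPM (SD, n = 3 each), a level 1.65-fold higher in *wt*. The log2 fold change of *Postn*-/- over *wt* was -0.72 with a standard error of 0.12. It ran from -0.76 to -0.68 over the other ways of fitting the data. Since these values chose the gene, no p is given and nothing is read from its rank among the genes.

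The way reads were counted can bear on the level of *Itga10*. By the exon positions deposited with the counts, 1739 of its 5186 exon bases (33.5%) are covered by more than 1 gene model. The authors counted unambiguous reads alone. Whether reads over those bases were dropped was not tested. Per length of the other 3447 bases, a calculation added after the data were seen, *Itga10* was at 4.63, 4.32 and 4.84 RPKM in *Postn*-/- and 7.54, 7.95 and 7.19 RPKM in *wt*, against 3.08, 2.87 and 3.22 and 5.01, 5.29 and 4.78 RPKM over the whole exon length. On this basis *Itga10* lay above *Itga1* in the 3 *wt* libraries and below it in the 3 *Postn*-/- libraries, while the order of the 7 means was the same. The ratio between genotypes does not depend on the length used. No other member shared more than 4.52% of its exon bases, the value of *Ddr1*.

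The genes around *Itga10* were compared next. *Rbm8a*, an exon junction complex gene that starts at -15656 bases relative to the start of *Itga10*, had a log2 fold change of -0.13 (unadjusted p = 0.204, edgeR's quasi-likelihood test). A transcript without a described role, *6330549D23Rik*, starts at -15764 bases and was at 1.53, 1.59 and 1.48 CPM against 2.08, 2.49 and 2.59 CPM. Its genotypes stood apart (log2 fold change -0.63, standard error 0.22, unadjusted p = 0.0227, edgeR), at a level near the filter. On the far side, *Ankrd35*, *Pias3* (an inhibitor of STAT signalling) and *Nudt17* had log2 fold changes of 0.15, -0.13 and -0.11, with unadjusted p of 0.618, 0.477 and 0.644. Within 1 Mb of the start, 42 other genes were tested, with log2 fold changes from -1.05 to 1.58 and a median of -0.03. 7 of the 42 passed an unadjusted threshold of 0.05 (6.3% of all tested genes did), 6 stood apart with lower levels in *Postn*-/- and 3 with higher ones, where 6.57% and 7.03% of all tested genes did. The start of *Itga10* lies 42.3 Mb from that of *Postn* on the same chromosome.

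**Figure D2:**
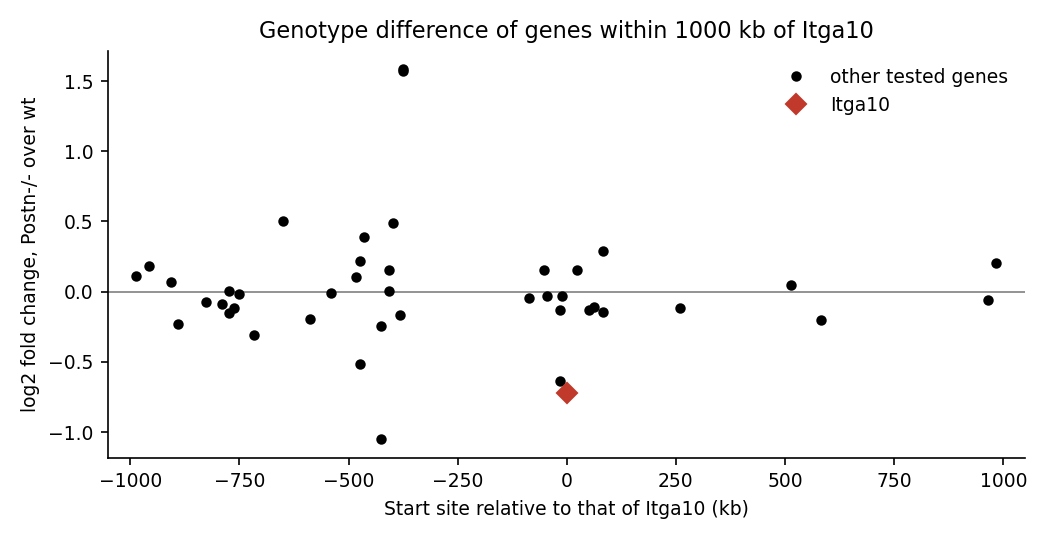
Log2 fold change of *Postn*-/- over *wt* for *Itga10* (diamond) and the 42 other tested genes (points) whose start lies within 1000 kb, against distance from the start of *Itga10* in kb. Most points lie near 0, and *6330549D23Rik* lies close to *Itga10*.

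By the root mean square difference of centred log2 CPM over the 6 libraries, the genes most like *Itga10* among 13861 genes with a mean of at least 1 CPM were *Bloc1s1* on chromosome 10 (0.113), *Tnfrsf14* on chromosome 4 (0.114) and *5830417I10Rik* on chromosome 3 (0.123). The median over all genes was 0.429. *Bloc1s1* encodes a subunit of a complex of lysosome biogenesis and *Tnfrsf14* a receptor of the tumor necrosis factor family. The points share their libraries, and the likeness is a description.

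Of the 6 members that were tested, none passed the adjusted threshold of 0.05, which 2 of 14533 genes passed (0.0138%). None of the 6 had an unadjusted p of 0.05 or less in edgeR either, where the share over all genes was 6.3% (2.35% lower and 3.95% higher in *Postn*-/-). The study's methods describe limma's voomWithQualityWeights with surrogate variables. With such a model, 3 of the 6 (*Itgb1*, *Itga11* and *Ddr1*) passed the unadjusted threshold, as did 2184 of 14533 genes, and none passed the adjusted one. DESeq2 called none at the adjusted threshold, which 0.0857% of its genes passed. With edgeR, Benjamini-Hochberg adjusted p-values of the 6 ran from 0.717 to 0.852. 4 of the 6 log2 fold changes were positive and their median was 0.16, beside 0.0042 over all genes tested. *Itgb1* was the only one of the 6 whose genotypes did not overlap, where 13.6% of all tested genes did not, 7.03% with the higher values in *Postn*-/- as for *Itgb1* and 6.57% with the lower.

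Of the sister alpha subunits, *Itga1* (ENSMUSG00000042284, chromosome 13, 114958079 to 115101964, minus strand) was at 34.9, 40.0 and 41.7 CPM in *Postn*-/- and 35.9, 39.7 and 34.0 CPM in *wt*. The genotypes overlapped. Its means were 38.9 ± 3.57 and 36.5 ± 2.90 CPM (SD, 3 libraries each), and the log2 fold change was 0.09 (95% interval -0.18 to 0.36, edgeR adjusted p = 0.852). With each library left out in turn the log2 fold change ran from 0.03 without *Postn*-/- replicate 3 to 0.16 without *Postn*-/- replicate 1.

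*Itga11* (ENSMUSG00000032243, chromosome 9, 62677826 to 62783982, plus strand) measured 31.8, 66.1 and 24.6 CPM in *Postn*-/- and 81.7, 45.5 and 42.1 CPM in *wt*. *Postn*-/- replicate 2 and *wt* replicate 1 were high, the genotypes overlapped, and the highest library exceeded the lowest by 2.69-fold within *Postn*-/- and 1.94-fold within *wt*. The means were 40.8 ± 22.2 and 56.5 ± 22.0 CPM, with a log2 fold change of -0.47 (standard error 0.39, 95% interval -1.38 to 0.44, edgeR adjusted p = 0.773). Single libraries decided its value: the log2 fold change was -1.0 without *Postn*-/- replicate 2 (unadjusted p = 0.0133 and adjusted p = 0.611, edgeR) and -0.10 without *wt* replicate 1.

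*Itga2* (ENSMUSG00000015533, chromosome 13, 114835916 to 114932041, minus strand), whose gene lies beside that of *Itga1*, was counted in 34, 43 and 47 reads in *Postn*-/- and 38, 18 and 38 reads in *wt*. This was 1.37, 1.75 and 2.24 CPM against 1.46, 0.814 and 1.82 CPM, with overlap. The log2 fold change was 0.38 (standard error 0.35, 95% interval -0.43 to 1.19, edgeR adjusted p = 0.797). The value rested on single libraries, at 0.12 without *wt* replicate 2, 0.19 without *Postn*-/- replicate 3 and 0.63 without *wt* replicate 3.

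*Itgb1* (ENSMUSG00000025809, chromosome 8, 128685654 to 128733200, plus strand) measured 290, 333 and 309 CPM in *Postn*-/- and 241, 279 and 274 CPM in *wt*. All *Postn*-/- libraries were above all *wt* libraries by a narrow margin. The means were 311 ± 21.5 and 265 ± 20.4 CPM, a log2 difference of 0.23 ± 0.11 (standard error, with a 95% interval from -0.02 to 0.49, unadjusted p = 0.0709 and adjusted p = 0.717, edgeR). With the replicate number as a block it passed the unadjusted threshold, at an adjusted p of 0.603. The sign was opposite to that of *Itga10*, with which it forms a receptor. *Itga10* was chosen for its direction, so nothing is read from this contrast.

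Among the receptor kinases, *Ddr1* (ENSMUSG00000003534, chromosome 17, 35681567 to 35704621, minus strand) was at 38.2, 47.7 and 42.3 CPM in *Postn*-/- and 25.6, 41.9 and 36.6 CPM in *wt*. Only *wt* replicate 1 and *wt* replicate 3 lay below every *Postn*-/- library. The log2 fold change was 0.30 (standard error 0.19, 95% interval -0.13 to 0.73, edgeR unadjusted p = 0.145 and adjusted p = 0.729). Without *wt* replicate 1, the lowest library, the log2 fold change was 0.12 (adjusted p = 0.879, edgeR). It was 0.46 without *wt* replicate 2 and passed the unadjusted threshold there (adjusted p = 0.568) and with the replicate number as a block (adjusted p = 0.603). *Ddr2* (ENSMUSG00000026674, chromosome 1, 169972308 to 170110501, minus strand) was at 349, 347 and 257 CPM in *Postn*-/- and 376, 365 and 302 CPM in *wt*. Replicate 3 was the lowest of each genotype and the genotypes overlapped. The log2 fold change was -0.13 (standard error 0.15, 95% interval -0.49 to 0.23, edgeR adjusted p = 0.836). It was -0.00 without *Postn*-/- replicate 3, -0.07 without *wt* replicate 1 and -0.22 without *wt* replicate 3.

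**Figure D3:**
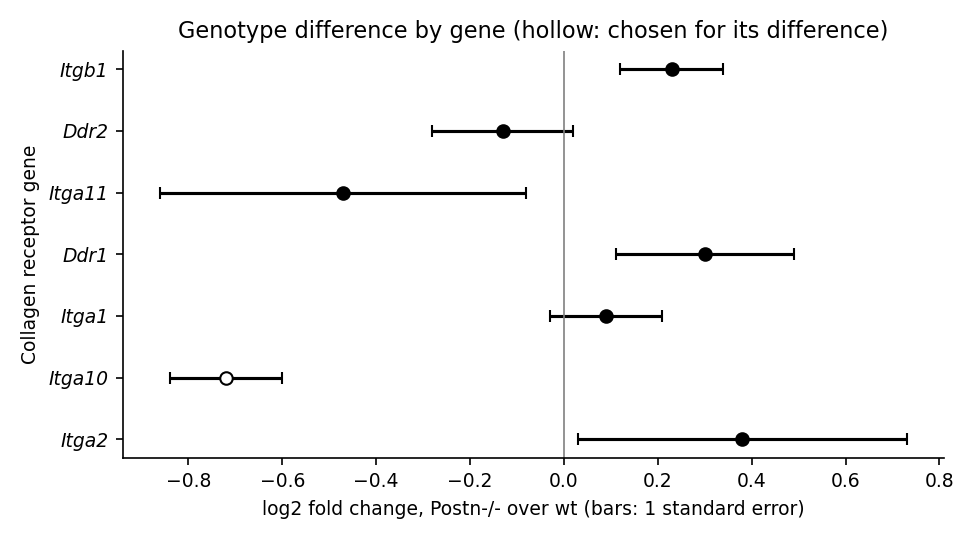
Log2 fold change of *Postn*-/- over *wt* for each collagen receptor gene, with bars of 1 standard error from edgeR. *Itga10*, drawn hollow because it was chosen for its difference, is the lowest at -0.72, and *Itga11* has the widest bar.

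Ratios within a library do not depend on how libraries are scaled. The log2 ratio of *Ddr2* to *Ddr1* RPKM was 2.37, 2.04 and 1.79 in *Postn*-/- and 3.06, 2.30 and 2.23 in *wt*. *Ddr2* was thus the larger message in every library, by 3.45-fold to 8.33-fold. The means were 2.07 ± 0.29 and 2.53 ± 0.46, a difference of -0.46 that an exact permutation test over the 6 libraries (two-sided) gave p = 0.3, where 0.1 is the smallest that 3 against 3 allows. The difference was -0.20 without *wt* replicate 1. The log2 ratio of *Itga11* to *Itga1* was 0.09, 0.95 and -0.54 in *Postn*-/- and 1.41, 0.42 and 0.53 in *wt*, a difference of -0.62 (exact permutation p = 0.4). It was -0.27 without *Postn*-/- replicate 3, -0.31 without *wt* replicate 1 and -1.01 without *Postn*-/- replicate 2. The ratio crossed 0 between libraries, so either alpha subunit could be the more abundant. These were the 2 ratios tested, and both have a Benjamini-Hochberg adjusted p of 0.4 over the pair by the exact permutation test.

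The make-up of the collagen-binding alpha subunits was then taken as shares of their summed RPKM over whole exon lengths. *Itga10* made up 19.9%, 12.6% and 20.7% in *Postn*-/- and 18.4%, 25.2% and 25.0% in *wt*. Although its own level was lower in every *Postn*-/- library, its shares overlapped. The sum of the 4 subunits varied too, at 15.4, 22.9 and 15.5 RPKM in *Postn*-/- and 27.3, 21.0 and 19.1 RPKM in *wt*, and *Itga11* made up 30.9% to 58.4% of it. *Itga1* contributed 22.0% to 45.0% and *Itga2* 0.921% to 3.43%. The level of *Itgb1* exceeded the summed alphas by 4.60-fold, 3.57-fold and 4.88-fold in *Postn*-/- and 2.17-fold, 3.25-fold and 3.52-fold in *wt*, and these values did not overlap. *Itga10* enters this sum, so the separation is a description.

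**Figure D4:**
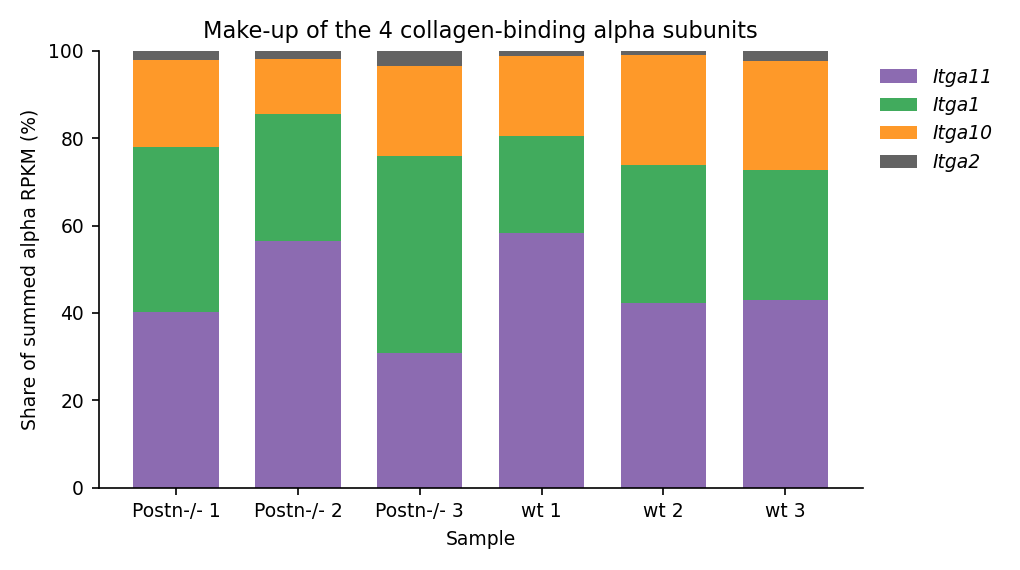
Share of each collagen-binding alpha subunit in the summed RPKM of the 4, in percent, for each library. *Itga11* is the largest share in every library but *Postn*-/- replicate 3, where *Itga1* is, and *Itga2* is a thin band throughout.

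The lists of genes on either side of the receptors were chosen with earlier results of these data known, so their shares are a description. They hold 86 genes, 80 of them tested. None passed the adjusted threshold, 10 had an unadjusted p of at most 0.05 and all of these were higher in *Postn*-/-, which is 12.5% of the 80, where 6.3% of all tested genes passed in either direction and 3.95% with higher levels. The count was 6 without *wt* replicate 3, where 878 of all genes passed, and 19 with surrogate variables, where 2184 did. The edgeR adjusted p of the 10 was no lower than 0.717, so none of these genes holds after adjustment over all genes. The median log2 fold change over the 80 was 0.12. Genotypes did not overlap for 10 of the 80 with higher values in *Postn*-/- and for 1 with lower values, where 13.6% of all tested genes did not overlap.

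Most genes past the unadjusted threshold were ligands. Of 19 collagen chains, 7 were higher at an unadjusted p of at most 0.05 (3.95% of all tested genes were) and none lower. Of the same 19 chains, 6 stood apart with higher values (7.03% of all tested genes did in that direction), and these 6 were among the 7. The median log2 fold change of the 19 was 0.51. *Col2a1*, the main fibril collagen of cartilage and the ligand of *Itga10* and *Ddr2*, was at 15767, 13696 and 18081 CPM in *Postn*-/- and 8271, 11867 and 9567 CPM in *wt* (log2 fold change 0.68, standard error 0.21, unadjusted p = 0.0125, edgeR). The genotypes stood apart. The sign was opposite to that of *Itga10*, which was chosen for its direction, so this contrast is a description. *Col9a3*, a chain of the collagen on the fibril surface, was at 1023, 803 and 1260 CPM against 293, 707 and 543 CPM (1.00, unadjusted p = 0.0128). The pericellular collagen VI chains *Col6a1* and *Col6a2* had log2 fold changes of 0.57 (unadjusted p = 0.0261) and 0.89 (unadjusted p = 0.0111), and the network chains *Col4a1* and *Col4a2*, ligands of *Itga1*, had 0.81 (unadjusted p = 0.0136) and 0.74 (unadjusted p = 0.0170) at 5.52 to 17.0 CPM. Genotypes stood apart for these 4 too, while the other chain past the unadjusted threshold, *Col11a2*, overlapped. *Col2a1* also counts among the chondrocyte markers, of which it was the only one past the unadjusted threshold, and the part of cell make-up in these values was not tested.

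Of the other alpha subunits that pair with *Itgb1*, none of 8 passed at an unadjusted p, and their median log2 fold change was 0.20. The most abundant was *Itga5*, the fibronectin receptor subunit, at 236, 169 and 186 CPM in *Postn*-/- and 174, 165 and 165 CPM in *wt* (0.23, unadjusted p = 0.127). Of the collagen receptors outside both families, 5 of 9 were tested, and the platelet receptor *Gp6* was not, at 0.0407 to 0.191 CPM in *Postn*-/- and 0 in *wt*. *Mrc2*, which takes up collagen for breakdown, was at 77.4, 85.8 and 68.1 CPM in *Postn*-/- and 52.3, 43.2 and 48.1 CPM in *wt*. Its genotypes stood well apart, with a log2 fold change of 0.69 ± 0.12 (standard error, with unadjusted p = 0.0006 and adjusted p = 0.717, edgeR). *Cd44*, the hyaluronan receptor and the most abundant of that list, had a log2 fold change of -0.21 (unadjusted p = 0.484).

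In each of the remaining lists 0 or 1 gene passed the unadjusted threshold, which 6.3% of all tested genes did. Inside the cell, none of 11 proteins that bind the integrin tail or activate it was past the unadjusted threshold, *Flna* (filamin A) among them at -0.26 (unadjusted p = 0.185). Of 14 tested adaptors of the focal adhesion, *Zyx* (zyxin) alone was, at 167, 171 and 248 CPM in *Postn*-/- and 82.0, 127 and 158 CPM in *wt* (0.67, unadjusted p = 0.0289). *Tns2* (tensin 2), the most abundant of that list, was at 277, 176 and 234 CPM against 284, 208 and 210 CPM, with overlap (-0.03, unadjusted p = 0.882). Of 15 kinases and adaptors that signal from the receptors, *Shc1*, an adaptor that links collagen receptors to Ras, alone was past the threshold, at 80.8, 67.7 and 73.0 CPM against 59.5, 54.5 and 52.6 CPM (0.41, unadjusted p = 0.00562). *Zyx* and *Shc1* had genotypes that did not overlap. The genotypes also stood apart for *Itgb1bp1*, which binds the *Itgb1* tail, with higher values in *Postn*-/- (0.22, unadjusted p = 0.0624), and for the adaptor *Grb2*, with lower ones (-0.09, unadjusted p = 0.453). None of the 8 proteases and inhibitors was past it, and *Timp3*, the most abundant, had a log2 fold change of -0.14 (unadjusted p = 0.611).

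**Figure D5:**
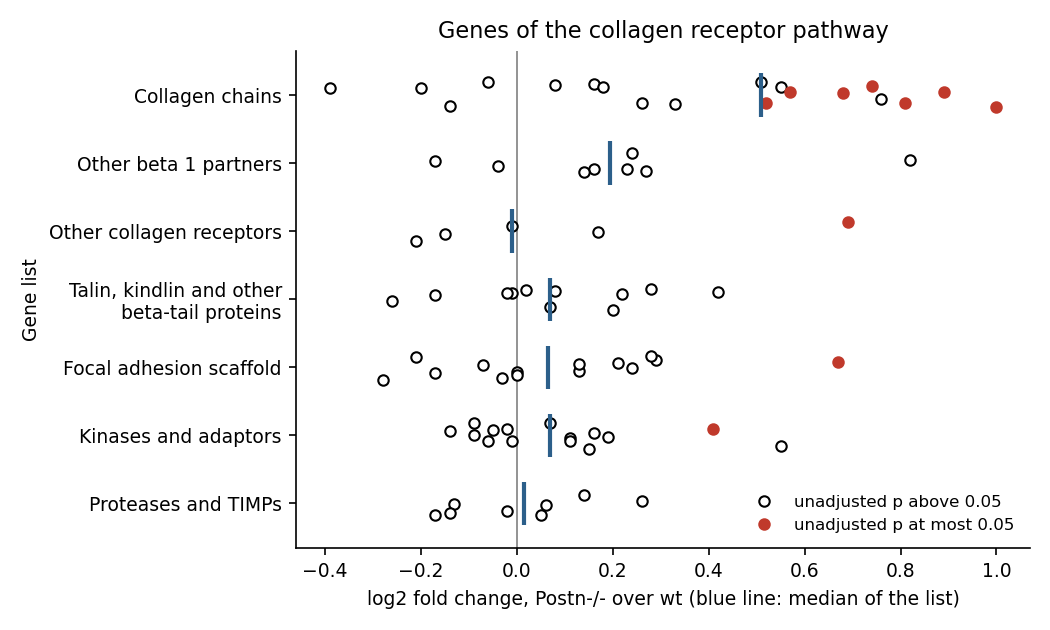
Log2 fold change of *Postn*-/- over *wt* for every tested gene of the 7 pathway lists, a point per gene, filled where edgeR's unadjusted p was at most 0.05, with a line at each list's median. The filled points are 7 collagen chains, *Mrc2*, *Zyx* and *Shc1*, and all lie to the right of 0.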

How the data were processed

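The 6 libraries were 50-base single-end RNA-seq. Per the study's methods and the submitters' processing notes, the authors aligned reads with STAR 2.0.4b and assigned reads to genes with featureCounts 1.4.5, keeping those with a single alignment and no ambiguity. Strand use is not given in the sources used here. The notes name mm9, but 94.2% of 40340 matched gene starts lie within 1000 bases of GENCODE M21 (GRCm38), which gave the gene names. Gene and exon positions are those deposited with the counts. The deposited counts are raw. The CPM and RPKM deposited by the authors followed from them and were only checked.

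In R 4.3.3, edgeR 4.0.16 (TMM, quasi-likelihood test, Benjamini-Hochberg, no covariates) compared *Postn*-/- with *wt* over the 14533 genes that exceeded 1 CPM in 2 or more samples, after 355 rRNA genes were left out. No libraries were identical. The script was tested on simulated data. Alternatives used limma 3.58.1 (voomWithQualityWeights) with and without 2 surrogate variables (sva 3.50.0), DESeq2 1.42.0, other scalings and filters, a robust fit, a replicate block and each library left out.

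Named genes were the 7 members, *Postn*, genes from among the 3 nearest tested on each side of *Itga10*, and the 3 most like it. Per list, each gene past an unadjusted p of 0.05 with separate genotypes was named, plus the most abundant. *Col11a2*, *Gp6*, *Itgb1bp1*, *Grb2*, *Rgs5*, *Acta1* and *Hba-a2* were named after their values were seen. Members and lists were chosen with earlier results of these data known. Promoters came from RefSeq. A withheld item is not reported here.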

Additional observations from a re-analysis of the deposited data

How the results depend on the processing

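None of the alternatives called one of the 6 tested receptor genes at the adjusted threshold, where adjusted p-values ran from 0.241 to 1. The log2 fold change of each of these 6 genes had the same sign in every alternative that could be fitted. That of *Ddr2*, though, was -0.00 without *Postn*-/- replicate 3. *Itga10* was chosen for its direction, so its sign over the alternatives is not read as stability. At the unadjusted threshold, which no tested receptor gene passed at first, voomWithQualityWeights with surrogate variables called 3 (*Itgb1*, *Itga11* and *Ddr1*), the replicate block 2 (*Itgb1* and *Ddr1*), and leaving out a library 0 to 1 (*Itga11* without *Postn*-/- replicate 2, *Ddr1* without *wt* replicate 2). The count over all genes was 916 of 14533. It was 2184 with surrogate variables, 1188 with the block and 425 to 1257 with a library left out. Without a filter it was 1797, but of 34295 genes. The count over the pathway lists was 10, and it was 19 with surrogate variables, 11 with the block and 6 to 15 with a library left out. The causes were not tested. Pairing by replicate number was checked on the deviations of log2 CPM from the mean of each genotype. Correlations of these deviations between same-numbered libraries of the 2 genotypes were 0.0824 to 0.155. Those between libraries of different number were -0.13 to 0.0143. The same-numbered values were not all above 0.1, so the numbers were not taken as pairs. Even so, 6 of 6 libraries correlated best with their own number. *Itga2* dropped out where every library had to exceed 1 CPM. Depth limits *Itga2* most, at 18 to 47 reads.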

Other observations

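*Ilk*, the kinase-like scaffold at the integrin tail, did not pass the filter for low counts, with 9 to 14 reads in *Postn*-/- and 14 to 19 in *wt*. By the exon positions deposited with the counts, 89.7% of its exon bases are shared with *Taf10* and *Rrp8* on the other strand. The part of this in its count was not tested. It was chosen for mention after its values were seen.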
